A study of Homo sapiens with 6 samples.

Results

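The circadian clock genes PER1, PER2, PER3, CRY1, CRY2, CLOCK, NPAS2, NR1D1, NR1D2 and TEF were followed in LM3 cells, an established human hepatocellular carcinoma (HCC) cell line, with and without knockdown of the zinc finger gene ZNF706. The 10 genes were chosen by symbol, each matched a single row of the 33007 genes in the deposited table, and all 10 had enough reads to be among the 18390 genes tested. RNA was sequenced from 3 control samples carrying the vector and 3 samples with stable ZNF706 knockdown, all labelled as wild type in genotype. Per the study's methods, knockdown cells were made with a pLKO.1 short hairpin lentivirus and puromycin selection, and LM3 cells were kept in DMEM with fetal bovine serum. The sources used here do not say whether a knockdown line was a clone or a pool, how many hairpins were sequenced, whether the replicates were separate cultures, or at what time after seeding or medium change the RNA was taken. The p-values therefore measure the spread between these samples, which may be technical. A difference in clock phase and a difference in the level of a clock gene at any given phase cannot be told apart in samples from a single time.

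The circadian clock is a feedback loop of transcription that runs in nearly every cell, the liver among the tissues in which it is strongest. CLOCK, or its paralogue NPAS2, pairs with BMAL1 (ARNTL in the deposited table), and the pair binds E-box motifs to switch on the PER and CRY genes, whose proteins return to the nucleus and repress the pair. The same activators drive NR1D1 and NR1D2, which encode the nuclear receptors REV-ERBα and REV-ERBβ. These repress ARNTL at response elements (ROREs) that they share with the activating ROR receptors. A further arm acts through D-box motifs, to which TEF and its relatives DBP and HLF bind as activators and NFIL3 as a repressor. PER1 is also an immediate response gene that cAMP signalling through CREB and glucocorticoid signalling can induce.

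Promoters of the 4 genes that changed in the comparison are shown to place the letters of the elements through which the loop is known to act. RefSeq starts on GRCh38.p14 gave 15 windows for the 10 genes, each with 250 bases before and 50 bases from the transcription start. Capitals mark matches, on either strand, to the E-box CACGTG, to the E-box-like hexamer CACGTT, or to the D-box letters TTATGTAA (TTACATAA on the other strand) or TTACGTAA. The PER1 window is chr17:8152355-8152654 (minus strand), that of CRY1 is chr12:107093500-107093799 (minus strand), that of NR1D1 is chr17:40100540-40100839 (minus strand), and that of the second RefSeq start of NR1D2 is chr3:23945871-23946170 (plus strand).
PER1: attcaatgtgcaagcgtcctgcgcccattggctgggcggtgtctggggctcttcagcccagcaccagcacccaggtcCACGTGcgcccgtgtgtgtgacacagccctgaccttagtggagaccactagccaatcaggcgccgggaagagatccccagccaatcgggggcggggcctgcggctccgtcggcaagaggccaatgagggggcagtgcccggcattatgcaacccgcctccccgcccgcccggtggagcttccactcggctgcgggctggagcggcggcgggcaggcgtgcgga
CRY1: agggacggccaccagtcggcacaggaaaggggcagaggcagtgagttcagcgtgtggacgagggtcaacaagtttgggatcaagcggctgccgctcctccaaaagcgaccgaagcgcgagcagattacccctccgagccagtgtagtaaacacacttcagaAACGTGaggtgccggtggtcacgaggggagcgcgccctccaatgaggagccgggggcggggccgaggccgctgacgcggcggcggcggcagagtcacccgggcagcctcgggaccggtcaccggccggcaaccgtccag
NR1D1: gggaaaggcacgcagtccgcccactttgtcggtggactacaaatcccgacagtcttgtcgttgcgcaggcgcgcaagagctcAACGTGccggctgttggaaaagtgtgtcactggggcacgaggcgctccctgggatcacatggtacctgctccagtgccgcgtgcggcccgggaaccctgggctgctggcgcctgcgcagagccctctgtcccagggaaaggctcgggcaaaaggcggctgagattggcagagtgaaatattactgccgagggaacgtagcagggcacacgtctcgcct
NR1D2: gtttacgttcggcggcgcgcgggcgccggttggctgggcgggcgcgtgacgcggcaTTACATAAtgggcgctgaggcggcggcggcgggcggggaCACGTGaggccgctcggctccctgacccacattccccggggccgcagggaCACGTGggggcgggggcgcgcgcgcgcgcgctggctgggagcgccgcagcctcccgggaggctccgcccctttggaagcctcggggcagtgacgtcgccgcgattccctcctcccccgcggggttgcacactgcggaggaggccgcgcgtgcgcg

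The E-box CACGTG was present in 4 of the 15 windows, belonging to PER1, NR1D2 and both starts of TEF, and in 7.26% of the 35116 RefSeq windows of the same length. NR1D2 held it at positions -155 and -105 relative to its second start, and PER1 at position -173. The window of the first start of NR1D2, which is the start of the gene in the deposited table, held none of the motifs searched and is not shown. The E-box-like hexamer was found in 5 of the 15 windows (PER2, CRY1, CRY2, CLOCK and NR1D1) and in 5.34% of all windows. D-box letters were found in 3 of the 15 windows (PER2, PER3 and NR1D2), against 1.01% of all windows. No window of the 10 genes held the RORE consensus, an AGGTCA core behind an A/T-rich stretch, or the CREB element TGACGTCA, which occurred in 0.168% and 1.85% of all windows. No 2 matches in the windows of these genes overlapped. Of the further clock genes described later, 17 had windows, and in these the E-box occurred at BHLHE40, BHLHE41, CIART, CIPC and TIMELESS, the E-box-like hexamer at CSNK1E, the CREB element at HLF, and the RORE consensus at ARNTL, the known target of REV-ERB proteins, at position 28. Genes that rose and genes that fell both carried E-box or E-box-like letters, as the map of matches shows. A match to these letters is a description of the sequence, and binding was not measured in these samples.

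**Figure D1:**
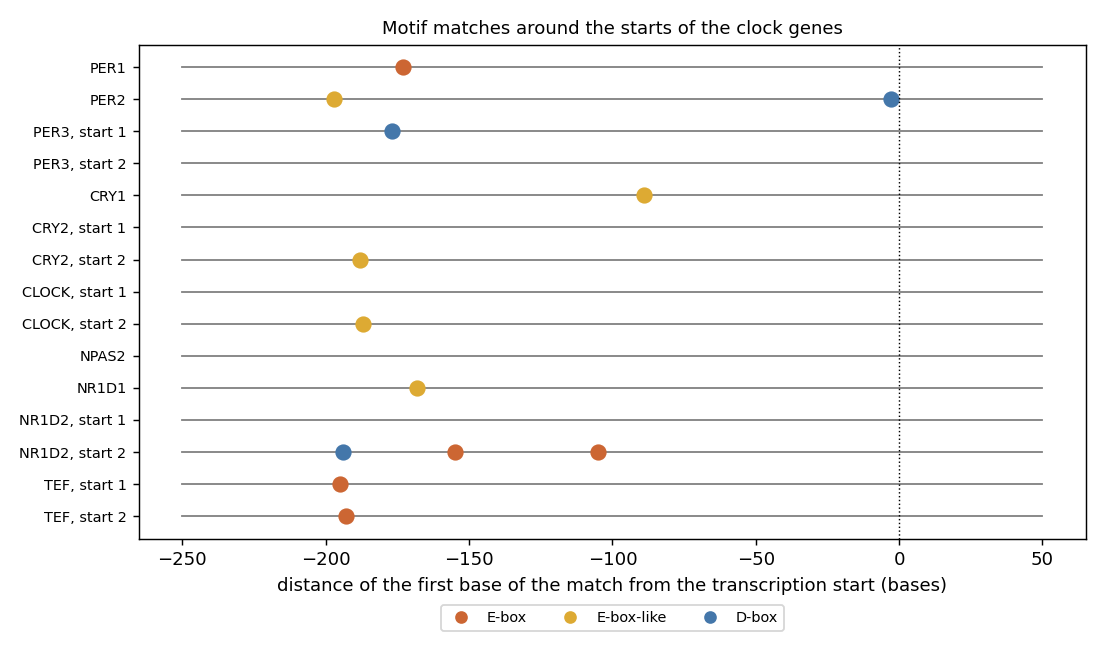
Positions of E-box, E-box-like and D-box letters in the 15 windows around the RefSeq starts of the 10 clock genes; the x axis is the distance in bases of the first base of each match from the transcription start, each grey line is a window and each point a match. E-box matches lie at PER1, NR1D2 and TEF, and NPAS2 has no match.

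Library totals came to 62684076, 64713764 and 63054445 in control samples and 68548419, 65861994 and 69057423 in knockdown samples, so every knockdown sample was deeper than every control sample. Counts were scaled by the TMM method to CPM, which places libraries of different depth on a common scale, and the groups were compared with the quasi-likelihood test of edgeR, whose p-values were adjusted by the Benjamini-Hochberg method over the 18390 genes. The targeted gene ZNF706 (ENSG00000120963, chromosome 8, 101177878 to 101205682, minus strand) had 51.9, 55.1 and 54.7 CPM in the control samples and 33.5, 30.8 and 32.8 CPM in the knockdown samples. Its log2 fold change was -0.73 (SE 0.0505, edgeR adjusted p = 3.7e-05), in the direction its label gives. Of all genes tested, 22.8% had an adjusted p below 0.05, 10.4% as rises and 12.4% as falls. This share was 13.9% without knockdown replicate 2 and 9.55% without a filter on low counts, and with library size alone as the scaling 2742 genes rose and 1518 fell. With TMM scaling, the filter and all samples, 4 of the 10 clock genes (40%) had an adjusted p below 0.05. PER1 and CRY1 were higher and NR1D1 and NR1D2 lower in the knockdown. The median size of the change, irrespective of sign, was 0.237 on the log2 scale for the 10 genes and 0.198 for all genes tested. The groups did not overlap for 5 of the 10 genes, against 39.4% of all genes, with 3 of the 5 higher and 2 lower (19.7% of all genes in each direction). An absolute log2 fold change of 0.3 or more, whatever its p, was found for 4 of the 10 genes and for 35% of all genes, and 3 of the 10 also had an unadjusted p below 0.05, against 15.5% of all genes. The 10 genes were not drawn at random, and the count of 4 carries no test.

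**Figure D2:**
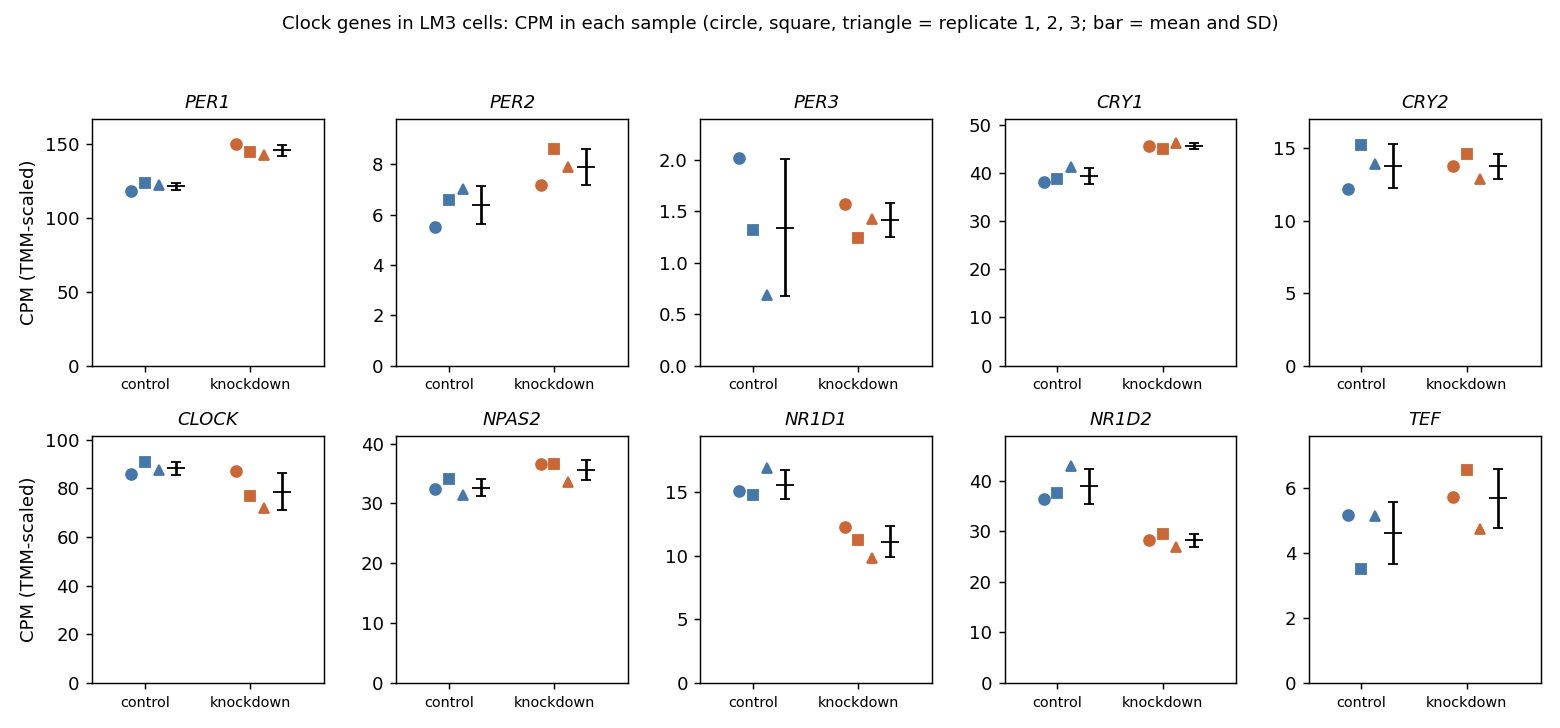
TMM-scaled CPM of each clock gene (y axis, from 0) in the 3 control samples (blue) and the 3 knockdown samples (orange); symbols mark replicates 1 to 3, and black bars give the mean and SD of each group. PER1, PER2 and CRY1 lie higher and NR1D1 and NR1D2 lower in every knockdown sample than in any control sample.

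The level of each transcript was compared between genes with FPKM, the authors' value scaled to gene length. In the control group PER1 was the most abundant, with 14.9 ± 0.263 FPKM (SD, n = 3). It was followed by CRY1 (7.10 ± 0.229), CLOCK (6.59 ± 0.185), NR1D2 (5.79 ± 0.468), NR1D1 (5.11 ± 0.338), NPAS2 (2.25 ± 0.105) and CRY2 (1.91 ± 0.205 FPKM). TEF (0.840 ± 0.173), PER2 (0.797 ± 0.0874) and PER3 (0.140 ± 0.070 FPKM) were the lowest. The control values of neighbours in this order overlapped for NR1D2 and NR1D1 and for TEF and PER2, and for no other neighbours. The order was the same in the knockdown group, again with overlap for NR1D2 and NR1D1 (4.14 to 4.53 against 3.32 to 4.17 FPKM) and for TEF and PER2 (0.90 to 1.24 against 0.93 to 1.12 FPKM). PER3 counts were between 42 and 125 in the 6 samples, so its fold change was poorly determined.

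**Figure D3:**
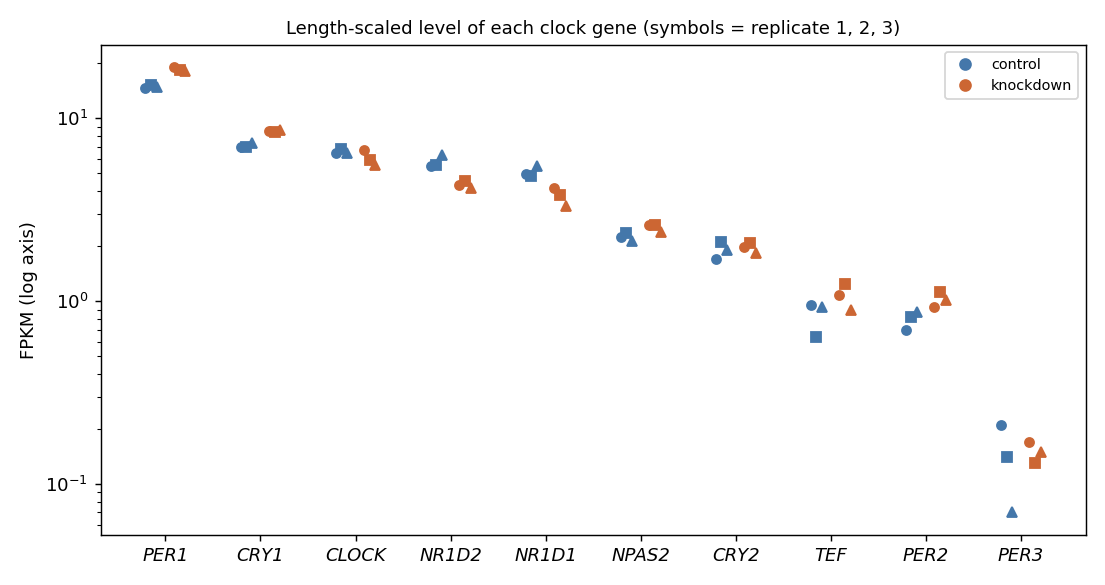
FPKM of the 10 clock genes (log axis) in each control (blue) and knockdown (orange) sample, ordered by the control mean from PER1 to PER3; symbols mark replicates. PER1 is near 14.9 FPKM and PER3 near 0.140 FPKM in the control samples, and the order of the means is the same in both groups.

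Among the repressors of the loop, PER1 (ENSG00000179094, chromosome 17, 8140472 to 8156405, minus strand) had 118, 124 and 122 CPM in the control samples and 150, 145 and 142 CPM in the knockdown samples. All knockdown values lay above all control values. The rise was 20.1%, a log2 fold change of 0.26 (SE 0.0361, edgeR adjusted p = 0.000891), and it stayed between 0.24 and 0.28 with each sample left out in turn. When each library's trend on gene GC content was removed, the log2 fold change of PER1, whose longest transcript is 62.7% GC, was smaller at 0.18 (edgeR adjusted p = 0.00597).

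PER2 (ENSG00000132326, chromosome 2, 238244044 to 238290102, minus strand), the paralogue best known for setting the length of the cycle, had 5.53, 6.58 and 7.00 CPM in the control samples and 7.19, 8.62 and 7.87 CPM in the knockdown samples. Its values did not overlap either, with the lowest knockdown sample just above the highest control sample. The log2 fold change of 0.31 (SE 0.127) exceeded that of PER1 in size but had an edgeR adjusted p of 0.115 (unadjusted 0.0364), so it did not pass the test. The PER1 to PER2 ratio of FPKM values averaged 18.9 ± 1.96 in the control group and 18.2 ± 2.08 in the knockdown group (SD, n = 3 each; exact permutation test, two-sided p = 0.7). PER3 (ENSG00000049246, chromosome 1, 7784320 to 7845177, plus strand), regarded as the least essential of the family, had 2.02, 1.32 and 0.684 CPM in the control samples and 1.57, 1.24 and 1.43 CPM in the knockdown samples. The knockdown values lay inside the control range (log2 fold change 0.07, SE 0.355, edgeR adjusted p = 0.914).

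The cryptochromes, the main repressors of CLOCK with BMAL1, differed from each other in level. CRY1 (ENSG00000008405, chromosome 12, 106991364 to 107093549, minus strand) had 38.2, 38.8 and 41.2 CPM in the control samples and 45.6, 45.0 and 46.1 CPM in the knockdown samples. The knockdown samples were close together and all above the control samples. The rise was 15.7%, a log2 fold change of 0.21 (SE 0.0473, edgeR adjusted p = 0.0108), and with the GC trend removed it was 0.30 (edgeR adjusted p = 0.00245). With each sample left out the edgeR adjusted p of CRY1 was between 0.0129 and 0.0484, the highest without control replicate 2. CRY2 (ENSG00000121671, chromosome 11, 45847118 to 45883247, plus strand) had 12.2, 15.2 and 13.9 CPM in the control samples and 13.8, 14.6 and 12.8 CPM in the knockdown samples, overlapping throughout (log2 fold change -0.0046, SE 0.103, edgeR adjusted p = 0.983), with a sign that changed with the scaling. The CRY1 to CRY2 ratio of FPKM values was 4.08, 3.31 and 3.85 in control samples and 4.32, 4.02 and 4.69 in knockdown samples. The ratios overlapped, and a difference between the paralogues in their response was not past the exact permutation test (two-sided p = 0.2, where 3 samples against 3 cannot go below 0.1).

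Both REV-ERB genes, the repressors of ARNTL, were lower in the knockdown, and theirs were the largest of the called changes among the 10 genes. NR1D1 (ENSG00000126368, chromosome 17, 40092793 to 40100589, minus strand) had 15.1, 14.8 and 16.9 CPM in the control samples and 12.3, 11.2 and 9.82 CPM in the knockdown samples. Every knockdown sample was below every control sample. NR1D1 fell by 28.7%, a log2 fold change of -0.49 (SE 0.106, edgeR adjusted p = 0.00931), which stayed between -0.57 and -0.41 with each sample left out. NR1D2 (ENSG00000174738, chromosome 3, 23945286 to 23980617, plus strand) had 36.5, 37.5 and 42.9 CPM in the control samples and 28.2, 29.4 and 27.0 CPM in the knockdown samples. These values did not overlap either, with control replicate 3 the highest for both genes. NR1D2 fell by 27.6%, a log2 fold change of -0.47 (SE 0.0717, edgeR adjusted p = 0.00157), between -0.52 and -0.39 with each sample left out. The NR1D2 to NR1D1 ratio of FPKM values was 1.13 ± 0.0308 in the control group and 1.16 ± 0.106 in the knockdown group (SD, n = 3 each), with no detected difference (exact permutation test, two-sided p = 0.8).

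The position of NR1D1 bears on its value. Its 3′ end overlaps the thyroid hormone receptor gene THRA on the opposite strand, with 263 exon bases in common (9.49% of those of NR1D1 in GENCODE release 29), and whether strand was used in counting is not given in the sources used here. THRA had 2332 to 2534 counts in the control samples and 2521 to 2711 in the knockdown samples (log2 fold change -0.02, edgeR adjusted p = 0.808). NR1D2 shares 1306 bases of its span with NKIRAS1, on the opposite strand, and no exon base. NKIRAS1 had a log2 fold change of -0.31 with an edgeR adjusted p of 0.104. The microRNA gene MIR6883 lies within PER1 and had at most 1 count in any sample, and UTS2, which shares 10.7% of the exon bases of PER3, had none.

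The activators behaved less clearly. CLOCK (ENSG00000134852, chromosome 4, 55427903 to 55546909, minus strand) had 86.1, 91.0 and 87.4 CPM in the control samples and 87.0, 76.8 and 71.9 CPM in the knockdown samples. Knockdown replicate 1 lay within the control range and the other knockdown samples below it. The log2 fold change was -0.17 (SE 0.0627), with an edgeR adjusted p of 0.0873 and a DESeq2 adjusted p of 0.0352. Without knockdown replicate 1 it was -0.24 (edgeR adjusted p = 0.00752), without knockdown replicate 3 it was -0.11 (edgeR adjusted p = 0.253), and with the GC trend removed it was -0.08 (edgeR adjusted p = 0.408). NPAS2 (ENSG00000170485, chromosome 2, 100820139 to 100996829, plus strand), which can stand in for CLOCK, had 32.5, 34.1 and 31.4 CPM in the control samples and 36.6, 36.5 and 33.6 CPM in the knockdown samples. Only knockdown replicate 3 fell inside the control range (log2 fold change 0.12, SE 0.0594, edgeR adjusted p = 0.174). The CLOCK to NPAS2 ratio of FPKM values was 2.88, 2.89 and 3.02 in control samples and 2.58, 2.28 and 2.32 in knockdown samples. The ratio was lower in each knockdown sample than in any control sample, with a mean log2 difference of -0.296 (two-sided exact permutation p = 0.1, which is the lowest value that 3 against 3 allows). The 4 paralogue ratios were chosen after the values of the genes had been seen. Their exact p-values were 0.1, 0.2, 0.7 and 0.8, and none can pass 0.05 in this design, adjusted or not.

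**Figure D4:**
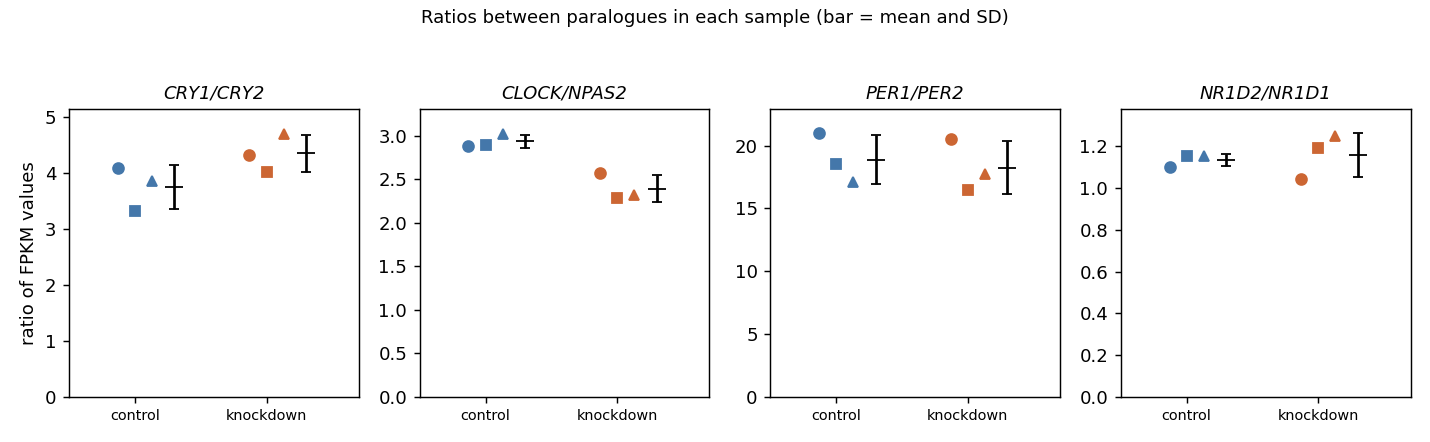
Ratios of FPKM values between clock paralogues (y axis, from 0) in each control (blue) and knockdown (orange) sample, with symbols for replicates and black bars for mean and SD. The CLOCK/NPAS2 ratio lies between 2.88 and 3.02 in the control samples and between 2.28 and 2.58 in the knockdown samples, while the other 3 ratios overlap between the groups.

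TEF (ENSG00000167074, chromosome 22, 41367333 to 41399326, plus strand), an activator at D-boxes, had 5.17, 3.51 and 5.13 CPM in the control samples and 5.73, 6.54 and 4.74 CPM in the knockdown samples. Control replicate 2 was the lowest, and knockdown replicate 3 lay within the control range. The log2 fold change of 0.30 (SE 0.183) had an edgeR adjusted p of 0.285, and it was 0.14 without control replicate 2.

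The rest of the loop was described with a list of 20 further clock genes, of which 19 were in the table and 17 were tested. Of the 17, 5 rose and 3 fell with an adjusted p below 0.05, which is 47.1%, where the share over all genes tested was 22.8%. The share describes only the genes named here, since some genes of the list are not reported. ARNTL, the obligate partner of CLOCK and NPAS2 and the target of the REV-ERB proteins, had 22.7, 26.8 and 22.3 CPM in the control samples and 25.2, 23.3 and 24.4 CPM in the knockdown samples. The groups overlapped (log2 fold change 0.03, SE 0.0844, edgeR adjusted p = 0.875), and so did those of its paralogue ARNTL2 (-0.07, edgeR adjusted p = 0.465). Of the ROR receptors, which activate at the sites that REV-ERB proteins repress, RORA, at 1.44 and 1.46 CPM, did not differ detectably (edgeR adjusted p = 0.965), and RORB, with at most 17 counts in any sample, was not tested.

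Among the D-box factors, NFIL3, the repressor, fell and DBP, an activator, rose. NFIL3 had 51.3, 54.5 and 46.1 CPM in the control samples and 39.9, 42.0 and 40.2 CPM in the knockdown samples, with no overlap. The log2 fold change of NFIL3 was -0.32 (SE 0.0617, edgeR adjusted p = 0.00541). DBP was scarce, with 1.24, 1.92 and 1.32 CPM in the control samples and 2.69, 2.74 and 2.07 CPM in the knockdown samples. All knockdown values of DBP were above the control values, but the log2 fold change of 0.74 (SE 0.233) had an edgeR adjusted p of only 0.0455. That of DBP rose to 0.124, 0.133, 0.123 and 0.141 without control replicate 1, control replicate 3, knockdown replicate 1 and knockdown replicate 2. It was 0.0668 with the GC trend removed, 0.0576 with the replicate number as a term as well, and 0.111 without a filter on low counts. HLF, at 0.520 and 0.279 CPM, was near the limit of counting (log2 fold change -0.89, SE 0.546, edgeR adjusted p = 0.290).

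Of the 5 further repressors tested, 3 rose, where 10.4% of all genes rose and 12.4% fell. BHLHE41 (DEC2) had 5.80, 5.82 and 5.33 CPM in the control samples and 10.2, 9.73 and 8.80 CPM in the knockdown samples, a clear separation. Its log2 fold change of 0.76 (SE 0.108, edgeR adjusted p = 0.00105) was the largest called change among the clock genes reported here. That of DBP was close, at 0.74 (SE 0.233). With each sample left out, DBP ranged from 0.62 to 0.96 and BHLHE41 from 0.71 to 0.82, so their order is not settled. BHLHE40 (DEC1), the paralogue of BHLHE41, was at 70.8 FPKM in the control group against 1.26 FPKM for BHLHE41. It rose from 289 ± 6.63 to 328 ± 8.90 CPM (SD, n = 3 each), a log2 fold change of 0.19 with an edgeR adjusted p of 0.00408. TIMELESS, a PER-binding protein better known in mammals for its role at replication forks, rose with a log2 fold change of 0.21 with an edgeR adjusted p of 0.00345. CIPC, an inhibitor of CLOCK, was at 26.9 and 25.5 CPM (edgeR adjusted p = 0.453). CIART, with 2 to 32 counts, gave no usable estimate (SE 0.853), and PASD1, with at most 4 counts in any sample, was not tested.

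**Figure D5:**
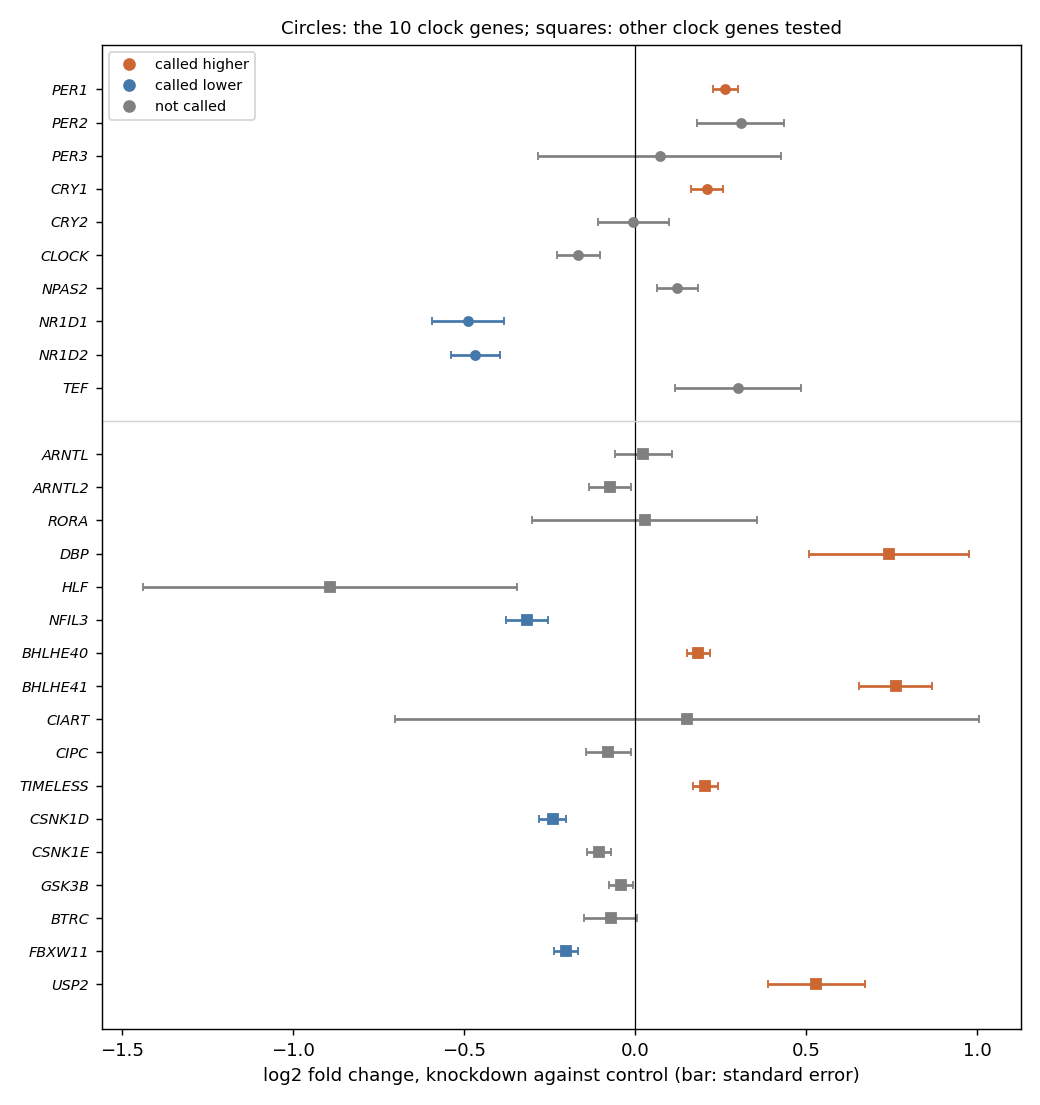
Log2 fold change of knockdown against control (x axis) with its standard error for the 10 clock genes (circles) and the 17 other clock genes tested (squares); orange and blue mark genes with an edgeR adjusted p below 0.05 that were higher or lower, grey those that did not pass. NR1D1 (-0.49) and NR1D2 (-0.47) lie to the left, and DBP (0.74) and BHLHE41 (0.76) to the right.

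Of the 6 tested enzymes reported here that set the stability of clock proteins, 2 fell and 1 rose, against 12.4% and 10.4% of all genes. CSNK1D, the casein kinase that phosphorylates PER proteins, had 85.9, 91.4 and 93.2 CPM in the control samples and 77.0, 76.4 and 75.6 CPM in the knockdown samples. The groups were well apart (log2 fold change -0.24, SE 0.0395, edgeR adjusted p = 0.00223). Its paralogue CSNK1E had a log2 fold change of -0.11 and did not pass (edgeR adjusted p = 0.0551), although it did in the DESeq2 fit (adjusted p = 0.031) and with the GC trend removed (-0.17, edgeR adjusted p = 0.00764). FBXW11, a ubiquitin ligase subunit that acts on phosphorylated PER, fell from 97.4 ± 0.626 to 84.6 ± 2.17 CPM (SD, n = 3 each; log2 fold change -0.20, edgeR adjusted p = 0.00287), while its paralogue BTRC had a log2 fold change of -0.07 with an edgeR adjusted p of 0.574. GSK3B was level (-0.04, edgeR adjusted p = 0.483). USP2, a deubiquitinase whose transcript is itself rhythmic, rose from 5.67 ± 0.589 to 8.19 ± 1.27 CPM (SD, n = 3 each; log2 fold change 0.53, edgeR adjusted p = 0.0241). The USP2 adjusted p was 0.062, 0.0873, 0.0887 and 0.0674 without control replicate 1, control replicate 2, knockdown replicate 1 and knockdown replicate 3 in the same edgeR test, and 0.0705 without a filter on low counts. FBXL21 was not analysed here.

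Downstream of the loop, 10 of the 11 output genes reported here were tested, and 3 of these fell (30%), where 22.8% of all genes tested were called and 12.4% fell. SIRT1, a deacetylase that acts on clock proteins, fell from 52.4 ± 4.41 to 38.4 ± 0.604 CPM (SD, n = 3 each; log2 fold change -0.45, edgeR adjusted p = 0.000842). KLF10, a rhythmic zinc finger factor, had a log2 fold change of -0.38 with an edgeR adjusted p of 0.000116. NAMPT, the rate-limiting enzyme of NAD salvage and a known target of CLOCK with BMAL1, had a smaller fall (log2 fold change -0.15, edgeR adjusted p = 0.0176). The call for NAMPT was lost without control replicate 1 (edgeR adjusted p = 0.0565), control replicate 3 (0.0579) or knockdown replicate 2 (0.0818), with library size alone as the scaling (0.103), and with the GC trend removed, where the value was -0.05 (0.354). It was also lost with limma on log2(FPKM + 0.1) (adjusted p = 0.087) and log2(FPKM + 1) (0.0867), and with the replicate number and GC removal together (edgeR adjusted p = 0.339). WEE1 (-0.02), CDKN1A (-0.09), NOCT (-0.15), PPARA (-0.12), PPARGC1A (-0.23), ALAS1 (0.06) and ELOVL3 (-0.05) did not pass the test, and KLF15, with at most 6 counts, was not tested. CDKN1A passed without knockdown replicate 3 (-0.14, edgeR adjusted p = 0.0459) and with the replicate number and GC removal together (-0.15, edgeR adjusted p = 0.0384), and ALAS1 passed with limma on log2(FPKM + 1) (0.11, adjusted p = 0.0494). Several of these genes answer to many other inputs.

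Genes that share inputs with PER1 were described in the same way. Of 13 listed, 12 were tested, of which 3 rose and 1 fell (33.3%, against 22.8% of all genes called in either direction). With so few genes this is not far from the share over all genes. In the CREB group, SIK1, a kinase that limits CREB signalling, had 67.0, 67.7 and 66.4 CPM in the control samples and 91.1, 82.0 and 87.9 CPM in the knockdown samples. The log2 fold change of SIK1 was 0.38 (SE 0.0434, edgeR adjusted p = 0.00038), and FOS, an immediate early gene, rose by 0.45 (SE 0.0892, edgeR adjusted p = 0.00588). NR4A1 (0.03), NR4A2 (-0.0024), NR4A3 (0.14) and CREM (0.06) did not pass the test. In the glucocorticoid receptor group, TSC22D3 (GILZ) rose from 15.5 ± 0.870 to 25.0 ± 1.53 CPM (SD, n = 3 each; log2 fold change 0.69, edgeR adjusted p = 0.000407), whereas DUSP1 fell (log2 fold change -0.29, edgeR adjusted p = 0.000844). The receptor gene NR3C1 (-0.09), FKBP5 (-0.07), KLF9 (-0.14) and SGK1 (-0.09) did not pass the test, and ZBTB16, with at most 18 counts, was not tested. The glucocorticoid list therefore did not move in a single direction.

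The label of the cells was checked with markers. The epithelial markers KRT8, KRT18, KRT19, EPCAM and CDH1 summed to 452.76, 459.49 and 479.97 FPKM in the control samples and 451.63, 466.97 and 469.19 FPKM in the knockdown samples, led by KRT18. KRT18 and KRT8 made up nearly all of these sums, while EPCAM and CDH1 were at most 0.40 and 0.52 FPKM in any sample. None of the 5 passed the edgeR test with TMM scaling, the filter and all samples. The log2 fold change was 0.83 for KRT19 (edgeR adjusted p = 0.054), 0.59 for CDH1 (0.0725) and -0.10 for KRT18 (0.0758). In the DESeq2 fit KRT19 (adjusted p = 0.025) and KRT18 (adjusted p = 0.019) passed. KRT18 also passed in edgeR with the GC trend removed (-0.15, edgeR adjusted p = 0.011) and with the replicate number as a term (edgeR adjusted p = 0.0393). CDH1 passed with the replicate number as a term (0.60, edgeR adjusted p = 0.046), and KRT19 with library size alone (0.89, edgeR adjusted p = 0.0407). KRT18 and CDH1 each passed in 1 of the 6 fits with a sample left out. The 6 hepatic markers were low, at 2.89, 7.06 and 8.37 FPKM in the control samples and 3.56, 3.79 and 2.25 FPKM in the knockdown samples in all, with ALB the most abundant at a mean of 2.17 FPKM. GPC3, which is among the 6, had 0.0969, 1.92 and 2.70 CPM in the control samples and 1.81, 1.51 and 0 CPM in the knockdown samples. All 6 had negative log2 fold changes, and none passed the edgeR test. APOA1 had 1.97, 2.36 and 3.54 CPM in the control and 0, 0.0596 and 1.97 CPM in the knockdown samples (-1.95, edgeR adjusted p = 0.246). It passed with the replicate number as a term (-3.53, edgeR adjusted p = 0.0422). APOA1 and HNF4A each passed in 1 of the 6 fits with a sample left out. Hepatic transcripts were thus scarce in both groups of these liver tumour cells, and control replicate 1 was nearer to the knockdown samples than to the other control samples in this sum. The leukocyte list, 4 of whose 5 genes were in the table, summed to 10.92, 10.81 and 11.57 FPKM in the control samples and 16.87, 18.46 and 17.07 FPKM in the knockdown samples, nearly all of it from CD68 (log2 fold change 0.64), while PTPRC, which marks all leukocytes, was at or below 0.01 FPKM in every sample. CD68 passed the edgeR test (adjusted p = 0.000106), also with each sample left out. CD14 (0.69, edgeR adjusted p = 0.507) and LYZ (-1.71, edgeR adjusted p = 0.215) did not pass. The 5 fibroblast markers, led by COL1A1, summed to 7.30 to 8.11 FPKM in the control and 8.56 to 8.76 FPKM in the knockdown samples. The 3 endothelial markers in the table, led by CDH5, summed to 1.79 to 2.06 and 1.43 to 1.69 FPKM. In each of these lists 1 gene was called, COL1A1 (log2 fold change 0.20) and CDH5 (-0.70). LUM (-1.26), DCN (-0.04) and PECAM1 (0.15) did not pass the edgeR test. COL1A2, PDGFRA and VWF were not tested, and were at or below 0.15, 0.04 and 0.03 FPKM in every sample. The part of these cell type markers in the clock gene results was not tested. Fewer cells with a transcript and less of it per cell cannot be told apart in these bulk samples.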

How the data were processed

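RNA from 3 control and 3 ZNF706-knockdown LM3 samples was sequenced on an Illumina NovaSeq system. Per the study's methods and the submitters' processing notes, reads were trimmed with cutadapt 1.9 and mapped to GRCh38 with HISAT2. The authors deposited, in a single table, raw read counts and FPKM values for each gene. The counting program, its use of strand and the annotation release are not given in the sources used here. Positions in the table overlapped those of GENCODE release 29 on GRCh38 for 99.77% of shared genes. No fold changes or p-values of the authors were in the table, and 0 value columns lacked a sample.

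The test was the quasi-likelihood F-test of edgeR 4.0.16 (R 4.3.3), with group as the term, after the filterByExpr filter and TMM scaling. A call is a Benjamini-Hochberg adjusted p below 0.05 over 18390 genes. The SE is the size of the log2 fold change over the root of its F value. The fit was tested on simulated counts. Levels between genes were compared only in FPKM. Alternatives were DESeq2 1.42.0, other scalings and filters, limma 3.58.1 on log2(FPKM + 0.1) and log2(FPKM + 1) where the mean FPKM reached 1, a term for replicate number, removal of a loess trend on GC content of the longest GENCODE transcript, the study's criteria, and leaving out each sample. The study used DESeq2. Total counts were 62684076 to 69057423, and the spread between replicates exceeded counting error. Promoters came from RefSeq (GRCh38.p14). The rule for names took the 10 genes, ZNF706, the called or untested genes of the lists and genes that overlap the 10; others are added to complete a list. Some genes of the lists, called ones among them, are not reported here and are in none of the list counts, which their removal changes. The 10 genes and all lists were chosen with earlier results of these data known. Repeated libraries were looked for: chi-square values averaged over genes lay between 12.8 and 22.2 within groups and between 45.9 and 53.9 across groups, so no sample repeated another.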

Additional observations from a re-analysis of the deposited data

How the results depend on the processing

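The calls for PER1, CRY1, NR1D1 and NR1D2 and the fall of ZNF706 kept their direction and passed the threshold under DESeq2, every scaling, filter and FPKM setting, the replicate number as a term, GC removal and each sample left out, with ZNF706 between -0.77 and -0.57. The study's criteria (unadjusted p below 0.05 with a log2 change of 0.3 or more in size), applied here to the edgeR values where the study used DESeq2, called 3 clock genes instead of 4, namely PER2, NR1D1 and NR1D2, and 2848 genes in all. DESeq2 added CLOCK (-0.17, adjusted p = 0.0352), as did leaving out knockdown replicate 1. The count over all genes was 4192 and ranged from 2648 (without knockdown replicate 2) to 3424 with single samples left out. Rises made up 45.5% of calls with TMM, 64.4% with library size alone, 59.7% in both limma fits and 62.0% by the study's criteria. Library size alone moved the median log2 fold change of all genes from 0.01 to 0.063. CRY2, at -0.0046, changed sign with library size alone (0.0497), with a mean count of at least 50 (0.00046) and with limma on log2(FPKM + 0.1) (0.043) and log2(FPKM + 1) (0.029), and ranged from -0.0895 to 0.0709 with single samples left out. PER3 ranged from -0.24 to 0.49 in the same way. None of these CRY2 or PER3 values passed the threshold, and the cause was not tested. PER2, PER3 and TEF had a mean FPKM below 1 and were not in the limma fits.

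The replicate numbers did not pair the samples: deviations from the group means of same-numbered samples correlated at 0.034, -0.036 and -0.016. With the replicate block 4361 genes were called in all, and the clock count stayed at 4 of 10, while CSNK1E passed (adjusted p = 0.0493); with the block and GC removal together it was 4036 genes and 4 of 10.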
